A study of Mus musculus with 12 samples.

Results

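The 10 genes described here are targets and components of growth hormone signalling in mouse liver: the receptor Ghr, the feedback inhibitors Socs2 and Cish, the hormone Igf1, and the target enzymes and secreted proteins Hsd3b5, Keg1, Selenbp2, Serpina12, Cyp7b1 and Elovl3. Each was represented by a probe set whose platform annotation names that gene alone and, where a gene had several, by the one with the highest mean over all 12 arrays. All 10 of the 10 genes named were measured, among 22180 genes in all. The probe sets were chosen by their mean level over the 12 arrays. The list itself was drawn up with results of these arrays in view and the values behind that choice are not stated, so the counts of changed genes below describe the list and support nothing beyond it. The height of those means is therefore no result.

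Liver RNA for 12 arrays came from male mice aged 2 months of strain C57Bl/6N, all carrying the floxed p53 allele Trp53tm1Brn/J. An adenovirus was injected into the tail vein at equal titers, carrying either Cre recombinase (Adeno-Cre), an enzyme that cuts out the floxed stretch of p53 in cells it infects, or green fluorescent protein (Adeno-GFP). The diet began 3 days later, when mice were either fasted for 24 h or fed standard chow freely. The groups were Adeno-Cre fasted, Adeno-Cre fed, Adeno-GFP fasted and Adeno-GFP fed, with 3 arrays each. Every group therefore carries the floxed alleles and an adenovirus, and which cells were infected is not given in the sources used here. The targeted gene was not analysed here, so the injection labels were not checked against it. The labels number the arrays of a group but do not say that they are separate animals, so p-values measure only the spread between these arrays.

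Values are log2 expression levels, and the array medians lay between 6.26 and 6.33. Over all genes, the correlation between arrays of the same group was 0.991 to 0.994. All 9 measured hepatocyte markers had means above the lowest array median, and group means of the albumin gene Alb were 13.27 to 13.30. Fasting moved genes of fuel use on the log2 scale: Cpt1a, which admits fatty acids to mitochondria, rose by 0.41 after Adeno-Cre and by 0.46 after Adeno-GFP, and the desaturase Scd1 fell by 0.80 and by 1.09. The Cpt1a call after Adeno-Cre was lost in 4 of 19 alternative settings, among them those without Adeno-Cre fasted replicate 1 or 2 or Adeno-Cre fed replicate 2. The gluconeogenic gene Pck1 differed by 0.35 and 0.39 and did not pass the test. Of 12 measured fasting genes, 3 rose and 3 fell after Adeno-Cre, and 3 rose and 5 fell after Adeno-GFP.

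Growth hormone is secreted by the pituitary in pulses in male rodents and more evenly in females. It binds its receptor on hepatocytes, the kinase JAK2 phosphorylates the transcription factor STAT5, and STAT5 then enters the nucleus and switches on target genes such as Igf1, Socs2 and Cish. The pulsatile male pattern maintains a set of male-biased liver genes, to which Hsd3b5, Keg1, Selenbp2, Serpina12, Cyp7b1 and Elovl3 belong in mouse. Fasting is known to make mouse liver less responsive to growth hormone.

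Some of the genes passed the test with fasting and others did not. No difference between genes was tested, so not passing does not show an unchanged level. Hsd3b5, Keg1, Selenbp2, Serpina12 and Cyp7b1 fell in fasted livers after both injections, by 1.77-fold to 35.2-fold after Adeno-Cre and by 1.96-fold to 24.1-fold after Adeno-GFP. Ghr passed the test after Adeno-GFP and missed it after Adeno-Cre, while Igf1, Elovl3, Socs2 and Cish passed it after neither. Between Adeno-Cre and Adeno-GFP none of the 10 passed in either diet at an adjusted p under 0.05, and 1 in fasted and 0 in fed livers had an unadjusted p under 0.05. Of all 22180 genes, 3711 in fasted and 2742 in fed livers had an unadjusted p under 0.05. The tests were limma's moderated test across all genes with Benjamini-Hochberg adjustment over the 22180 genes.

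Counted against all genes, 5 of the 10 fell in fasted livers after Adeno-Cre, where 1.17% of all genes fell. After Adeno-GFP, 6 of the 10 fell, where 1.87% of all genes fell. None of the 10 rose in either comparison. In 6 of the 10, all 3 fasted arrays lay below all 3 fed arrays after Adeno-Cre, which held for 9.81% of all genes, and 6 of the 10 did so after Adeno-GFP, against 11.1% of all genes. The median log2 change of the 10 genes, fasted minus fed, was -0.89 after Adeno-Cre and -0.87 after Adeno-GFP, and that of all genes was -0.00 and 0.01. The comparisons after Adeno-Cre and after Adeno-GFP share no arrays. In all, 112 genes fell after both injections, and 5 of them were among the 10.

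**Figure D1:**
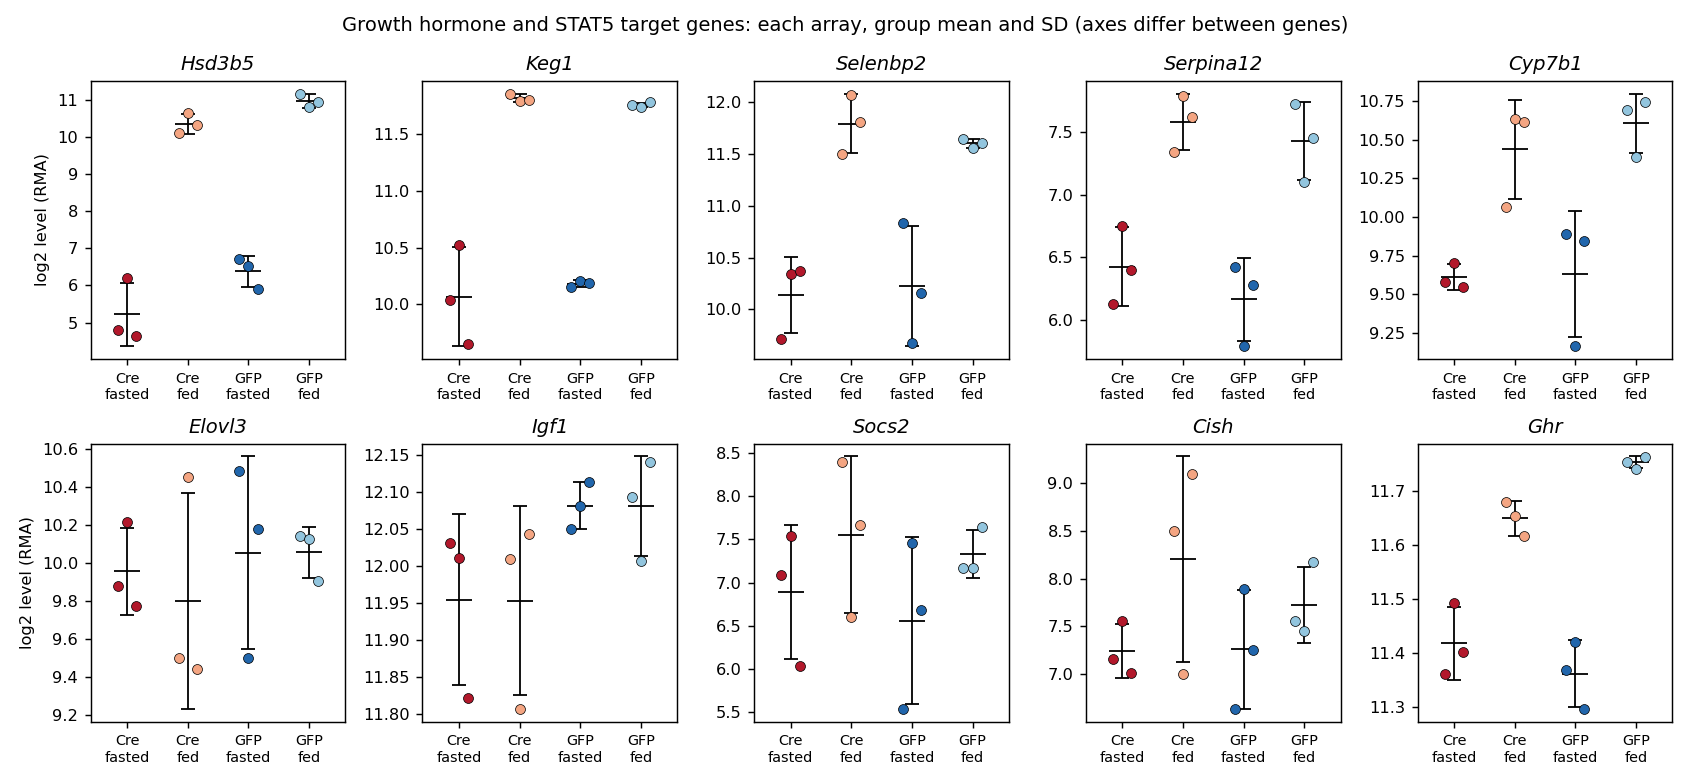
Log2 level of the 10 genes on each array, with the group mean (bar) and SD (whiskers) of 3 arrays a group; the vertical axes differ between genes. Hsd3b5, Keg1, Selenbp2, Serpina12, Cyp7b1 and Ghr show fasted arrays below all fed arrays of the same injection, and the other genes show overlapping groups.

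Ghr, the receptor through which the hormone acts, had levels of 11.36, 11.49 and 11.40 in Adeno-Cre fasted livers, against 11.68, 11.65 and 11.62 in Adeno-Cre fed livers. It had 11.37, 11.42 and 11.30 in Adeno-GFP fasted livers, against 11.75, 11.74 and 11.76 in Adeno-GFP fed livers. Fasted arrays were below fed arrays in both injections, within a narrow range. The log2 difference was -0.39 (SE 0.07, adjusted p = 0.01) after Adeno-GFP, a 1.31-fold fall. After Adeno-Cre it was -0.23 (95% interval -0.38 to -0.08) and missed the threshold (adjusted p = 0.104). That call depended on the fit: with dim genes left out the adjusted p was 0.03, and with a trended and robust variance prior it was 0.0128. The difference between the 2 fasting responses was 0.16 (95% interval -0.05 to 0.37, adjusted p = 0.742). The spread of Ghr within a group (SD 0.049) was less than that of its group means (SD 0.186).

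Transcripts of the proteins that carry the signal from the receptor did not pass the test with fasting. Protein levels and phosphorylation were not measured here. Jak2, the kinase bound to the receptor, had log2 differences of -0.27 after Adeno-Cre and -0.34 after Adeno-GFP. Stat5b, the main STAT5 form of liver, had 0.18 and 0.08, and its close relative Stat5a had 0.10 and 0.10. Of 14 measured genes of growth hormone receptor signalling, Ghr and the feedback inhibitors included, none passed after Adeno-Cre, with 2 at an unadjusted p under 0.05. After Adeno-GFP, 1 of the 14 fell, and it was Ghr. The median of the 14 was 0.02 after each injection.

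Socs2, a feedback inhibitor that STAT5 induces and that limits receptor signalling, scattered widely. Its levels were 7.08, 7.54 and 6.03 in Adeno-Cre fasted livers and 8.40, 6.60 and 7.66 in Adeno-Cre fed livers. In Adeno-GFP fasted livers they were 5.54, 7.46 and 6.68, against 7.16, 7.17 and 7.65 in Adeno-GFP fed livers. Fasted and fed arrays overlapped after both injections. The log2 differences of -0.67 (95% interval -1.80 to 0.46) and -0.77 (95% interval -1.90 to 0.36) did not pass the test (adjusted p = 0.589 and 0.513), and the intervals leave room for falls of over 1 log2 unit. A second, dimmer probe set of Socs2, examined after the data were seen, gave -0.09 and 0.06 and scattered far less (SE 0.10).

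Cish, a related inhibitor of cytokine receptors whose gene STAT5 switches on directly, varied between arrays as well. It had 7.16, 7.56 and 7.01 in Adeno-Cre fasted livers, against 8.50, 7.01 and 9.10 in Adeno-Cre fed livers. It had 6.64, 7.89 and 7.25 in Adeno-GFP fasted livers, against 7.55, 7.45 and 8.18 in Adeno-GFP fed livers. A single fed array, replicate 2 after Adeno-Cre, lay as low as the lowest fasted array of that injection. The log2 difference was -0.96 (95% interval -1.93 to 0.01, adjusted p = 0.317) after Adeno-Cre and -0.47 (95% interval -1.44 to 0.50, adjusted p = 0.671) after Adeno-GFP. Without that array the difference after Adeno-Cre was -1.56 and its adjusted p 0.0469. The second, dimmer probe set of Cish gave -0.45 and 0.00. Its mean of 6.08 over the 12 arrays lay below the lowest array median of 6.26, which limits what these differences show.

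STAT5 dimers bind palindromes of the form TTCNNNGAA, so the RefSeq promoter windows of GRCm38.p6 (300 bases, 250 before and 50 after a gene's start) were searched for these letters. The palindrome reads the same on both strands. It occurred in 2726 of 32851 windows (8.30%), and 150 windows (0.457%) held 2 or more. Of 7 genes of the list with a window, Cish and Keg1 held it, 2 copies each. The Cish stretch is shown because its copies stand side by side, the first beginning at base 1 of the annotated start; capitals mark the palindromes. It lies at chr9:107296654-107296683 on the + strand.
Cish: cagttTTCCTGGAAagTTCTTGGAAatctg
The related spacing TTCNNNNGAA, which is also palindromic and cannot begin at the same base as the first form, occurred in 2284 windows (6.95%) and in those of Hsd3b5, Serpina12 and Keg1. These matches describe letters in the windows, and binding was not measured here.

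Igf1, the circulating growth factor that liver makes in response to growth hormone, showed no detectable difference with fasting. Its levels were 12.03, 12.01 and 11.82 in Adeno-Cre fasted livers and 12.01, 11.81 and 12.04 in Adeno-Cre fed livers. They were 12.05, 12.08 and 12.11 in Adeno-GFP fasted livers and 12.09, 12.01 and 12.14 in Adeno-GFP fed livers. The groups overlapped within each injection, and both log2 differences were 0.00 with 95% intervals of -0.19 to 0.19. Other genes of the IGF system were read from 14 measured members: 1 rose in each injection, and it was Igfbp2, a carrier protein of IGFs, with 0.74 after Adeno-Cre (adjusted p = 0.047) and 0.93 after Adeno-GFP (adjusted p = 0.0153). The call after Adeno-Cre was lost in 11 of 19 alternative settings, among them the omission of any array of Adeno-Cre, of Adeno-GFP fasted replicate 1 or of Adeno-GFP fed replicate 2 or 3, with adjusted p-values up to 0.163. That after Adeno-GFP was lost without Adeno-GFP fasted replicate 1 or 2 or Adeno-GFP fed replicate 2. Igfals, which stabilises circulating IGF complexes, had -0.20 and -0.32 and did not pass. Of all genes, 1.5% rose with fasting after Adeno-Cre and 1.2% after Adeno-GFP.

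Hsd3b5, a male-specific steroid dehydrogenase of the liver, showed the greatest response. It had levels of 4.81, 6.21 and 4.64 in Adeno-Cre fasted livers, against 10.10, 10.64 and 10.33 in Adeno-Cre fed livers. In Adeno-GFP fasted livers it had 6.70, 6.53 and 5.90, against 11.17, 10.81 and 10.94 in Adeno-GFP fed livers. Every fasted array was far below every fed array. The log2 change was -5.14 (SE 0.34, adjusted p = 3.17e-05) after Adeno-Cre, 35.2-fold lower, and -4.59 (adjusted p = 3.31e-05) after Adeno-GFP, 24.1-fold lower. Both ranked 1 from the lowest among the changes of all 22180 genes. The fasted levels were close to or below the array medians, where signal may not exceed background, so the size of the fall is uncertain. Because the liver was measured in bulk, fewer cells of a type and less RNA per cell cannot be told apart, here and for the genes that follow. Probe sets that Hsd3b5 shares with the neighbouring paralog Hsd3b4 and Gm10681 had the same values on every array, so they are not separate measurements. They gave -1.69 after Adeno-Cre and -2.18 after Adeno-GFP (adjusted p over all probe sets 0.0125 and 0.00254).

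The promoters of the genes with the greatest falls, Hsd3b5 and Keg1, are shown from 250 bases before the start to the base before it, from RefSeq and GRCm38.p6, with the palindromes in capitals. The Hsd3b5 stretch is chr3:98645535-98645784 on the - strand, with a TTCNNNNGAA match that begins 203 bases before the start.
Hsd3b5: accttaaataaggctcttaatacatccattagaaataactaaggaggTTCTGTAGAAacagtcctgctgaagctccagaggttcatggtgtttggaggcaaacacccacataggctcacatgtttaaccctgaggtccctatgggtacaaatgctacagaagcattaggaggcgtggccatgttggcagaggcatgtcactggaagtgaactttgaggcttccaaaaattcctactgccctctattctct
The Keg1 stretch is chr19:12695540-12695789 on the + strand, with TTCNNNGAA matches that begin 173 and 107 bases before the start.
Keg1: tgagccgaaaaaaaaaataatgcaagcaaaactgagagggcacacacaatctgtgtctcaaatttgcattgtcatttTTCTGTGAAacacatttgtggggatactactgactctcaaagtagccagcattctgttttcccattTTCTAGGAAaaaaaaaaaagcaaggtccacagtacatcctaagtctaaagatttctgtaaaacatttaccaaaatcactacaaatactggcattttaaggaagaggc
The window of Selenbp2, which also fell, held neither form.

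Keg1, whose product belongs to the glycine N-acyltransferase family, had 10.03, 10.52 and 9.64 in Adeno-Cre fasted livers, against 11.86, 11.80 and 11.80 in Adeno-Cre fed livers. It had 10.15, 10.21 and 10.19 in Adeno-GFP fasted livers, against 11.76, 11.74 and 11.78 in Adeno-GFP fed livers. Fed arrays were nearly identical, and fasted arrays after Adeno-Cre were the most scattered. The log2 change was -1.75 (SE 0.16, adjusted p = 0.000272) after Adeno-Cre and -1.58 (adjusted p = 0.000339) after Adeno-GFP, falls of 3.37-fold and 2.99-fold. The second probe set of Keg1 gave -2.05 and -1.34.

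Selenbp2, a selenium-binding protein of liver, had 9.72, 10.34 and 10.37 in Adeno-Cre fasted livers, against 11.49, 12.07 and 11.81 in Adeno-Cre fed livers. It had 10.84, 9.68 and 10.16 in Adeno-GFP fasted livers, against 11.64, 11.56 and 11.61 in Adeno-GFP fed livers. The groups did not overlap, although the fasted arrays after Adeno-GFP spread over more than 1 log2 unit. The log2 change was -1.65 (SE 0.25, adjusted p = 0.00616) after Adeno-Cre and -1.38 (adjusted p = 0.0138) after Adeno-GFP. Without Adeno-GFP fed replicate 1 the change after Adeno-GFP was -1.36, and its adjusted p of 0.0519 missed the threshold. Selenbp2 is nearly identical to Selenbp1, and how far its probes separate them was not tested.

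Serpina12, a secreted protease inhibitor also known as vaspin, had 6.12, 6.75 and 6.40 in Adeno-Cre fasted livers, against 7.34, 7.79 and 7.62 in Adeno-Cre fed livers. It had 6.42, 5.78 and 6.27 in Adeno-GFP fasted livers, against 7.73, 7.10 and 7.46 in Adeno-GFP fed livers. Fasted arrays were lower throughout, with levels around the array medians. The log2 change was -1.16 (SE 0.21, adjusted p = 0.0136) after Adeno-Cre and -1.27 (adjusted p = 0.00721) after Adeno-GFP. The call after Adeno-Cre was lost without Adeno-Cre fasted replicate 1 (adjusted p = 0.0609) or Adeno-Cre fed replicate 2 (adjusted p = 0.0508).

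Cyp7b1, an oxysterol hydroxylase that also acts on steroids, had 9.58, 9.70 and 9.55 in Adeno-Cre fasted livers, against 10.07, 10.63 and 10.61 in Adeno-Cre fed livers. It had 9.89, 9.16 and 9.85 in Adeno-GFP fasted livers, against 10.69, 10.39 and 10.74 in Adeno-GFP fed livers. The groups did not overlap, and the fall was the mildest of the 5. The log2 change was -0.83 (SE 0.19, adjusted p = 0.0433) after Adeno-Cre and -0.97 (adjusted p = 0.0191) after Adeno-GFP. The call after Adeno-Cre was fragile. It was lost in 11 of 19 alternative settings, 8 of which left out an array, and another was the fit of only the groups compared (adjusted p = 0.057). The 8 left out Adeno-Cre fasted replicate 1, 2 or 3, Adeno-Cre fed replicate 2 or 3, Adeno-GFP fasted replicate 3, or Adeno-GFP fed replicate 1 or 3, with adjusted p-values from 0.0508 to 0.146. The call after Adeno-GFP was lost in 4 of 19, including without Adeno-GFP fed replicate 1 (0.0707) or 3 (0.0644).

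Elovl3, an elongase of very long chain fatty acids, was the male-biased gene of the list that did not pass. Its levels were 9.88, 10.21 and 9.78 in Adeno-Cre fasted livers and 9.50, 10.45 and 9.44 in Adeno-Cre fed livers. They were 10.49, 9.50 and 10.18 in Adeno-GFP fasted livers and 10.14, 10.12 and 9.90 in Adeno-GFP fed livers. The groups overlapped, with 0.16 (95% interval -0.44 to 0.75) after Adeno-Cre and -0.00 (95% interval -0.59 to 0.59) after Adeno-GFP. These intervals do not reach the estimated falls of Hsd3b5, Keg1, Selenbp2, Serpina12 or Cyp7b1 on the same scale. They do overlap the 95% intervals of Cyp7b1, -1.25 to -0.41 after Adeno-Cre and -1.39 to -0.55 after Adeno-GFP. The arrays of a group differed more (SD 0.402) than the group means (SD 0.121).

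**Figure D2:**
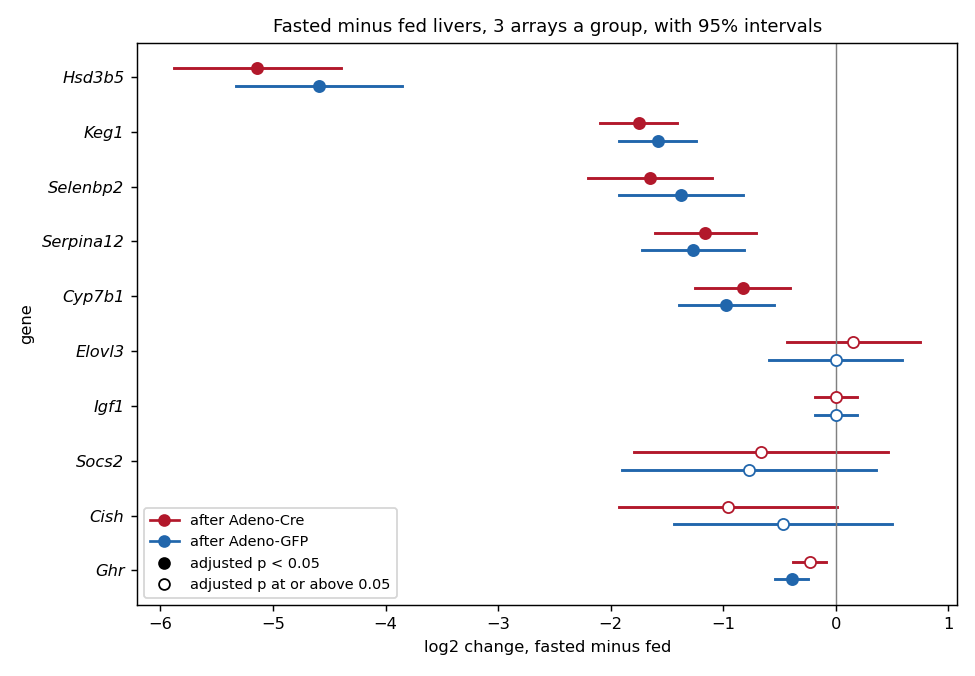
Log2 change of the 10 genes, fasted minus fed, after Adeno-Cre (red) and Adeno-GFP (blue), 3 arrays a group; points are limma estimates with 95% intervals, and filled points have an adjusted p under 0.05. Hsd3b5 stands at -5.14 and -4.59, while Igf1 and Elovl3 lie at or near 0 in both.

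Markers of cell type that moved with fasting are given beside these falls. Of all genes, 1.17% fell after Adeno-Cre and 1.87% after Adeno-GFP. Of 9 measured stellate cell markers, 3 fell after Adeno-Cre (Col3a1, Col1a2 and Lrat) and 2 after Adeno-GFP (Lrat and Col1a2). Their summed linear signal ranged over 4534 to 5415 in Adeno-Cre fasted and 4709 to 5442 in Adeno-Cre fed livers, and over 5575 to 5977 in Adeno-GFP fasted and 5824 to 6027 in Adeno-GFP fed livers. Of 9 hepatocyte markers, 0 passed after Adeno-Cre, with 2 at an unadjusted p under 0.05, and 1 rose after Adeno-GFP, Hnf4a. The summed hepatocyte signal overlapped between diets, at 64919 to 65490 in Adeno-Cre fasted and 63776 to 65798 in Adeno-Cre fed livers, and at 67354 to 69729 in Adeno-GFP fasted and 67328 to 67654 in Adeno-GFP fed livers. None of the markers of Kupffer cells, sinusoidal endothelium, cholangiocytes, lymphocytes or neutrophils (10, 10, 5, 9 and 8 measured) passed with fasting. In that order, 3, 0, 2, 4 and 0 had an unadjusted p under 0.05 after Adeno-Cre, and 0, 4, 0, 2 and 1 after Adeno-GFP. These unadjusted counts with fasting, here and for the signalling genes, are given without the share of all genes, so nothing is read from them. The part of these markers in the falls was not tested.

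A wider list of male-biased liver genes was read beside the 10 genes. Like every list used here, it was drawn up with earlier results of these arrays known. Its counts therefore describe the list and support nothing beyond it. Of 25 measured, 6 of them the targets above, 11 fell and 0 rose after each injection, and 10 fell after both. Of all genes, 1.17% fell after Adeno-Cre, 1.87% after Adeno-GFP and 0.505% after both. Apart from the 6, 19 were measured and 6 of these fell after each injection, with medians of -0.21 after Adeno-Cre and -0.36 after Adeno-GFP. Ugt2b38, a glucuronosyltransferase, had means of 3.20 ± 0.37 in Adeno-Cre fasted and 6.76 ± 0.63 in Adeno-Cre fed livers (SD, n = 3 each), and 3.54 ± 0.22 in Adeno-GFP fasted and 6.69 ± 0.20 in Adeno-GFP fed livers. Its log2 changes were -3.57 and -3.16, with fasted levels far below the array medians, so their size is uncertain. The related Ugt2b1 fell by 0.83 and by 0.57. The organic anion transporter Slco1a1, the complement component C6 and the major urinary protein Mup21, named after their values were seen, also fell after both, by 0.72, 0.69 and 0.68 after Adeno-Cre and by 0.53, 0.62 and 0.78 after Adeno-GFP. Named in the same way, C4a passed after Adeno-Cre (-0.93) and Cyp4a12a after Adeno-GFP (-0.62), calls lost in 15 and 9 of 19 settings, those without any array but Adeno-GFP fed replicate 3 for C4a and without any array of Adeno-GFP or Adeno-Cre fed replicate 2 for Cyp4a12a among them. The test of the difference between injections passed for no male-biased gene, and for 0.00451% of all genes. Ugt2b38 and Ugt2b1 passed in every setting run. After Adeno-Cre, C6 was lost without Adeno-Cre fasted replicate 1 or Adeno-Cre fed replicate 2 or 3, and Mup21 without Adeno-Cre fasted replicate 1 or any array of Adeno-Cre fed. After Adeno-GFP, Slco1a1 was lost without Adeno-GFP fasted replicate 3 or Adeno-GFP fed replicate 1 or 2, and C6 without Adeno-GFP fasted replicate 2 or 3 or any array of Adeno-GFP fed. Under the alternatives, the number of male-biased genes that passed, counted in either direction, ranged over 6 to 12 after Adeno-Cre and over 6 to 11 after Adeno-GFP. After Adeno-Cre it was 6 without Adeno-Cre fasted replicate 1 or Adeno-Cre fed replicate 2. After Adeno-GFP it was 6 without Adeno-GFP fed replicate 1. Genes of the Mup, Ugt2b, C4 and Cyp4a12 families have close copies whose signals the probes may share.

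**Figure D3:**
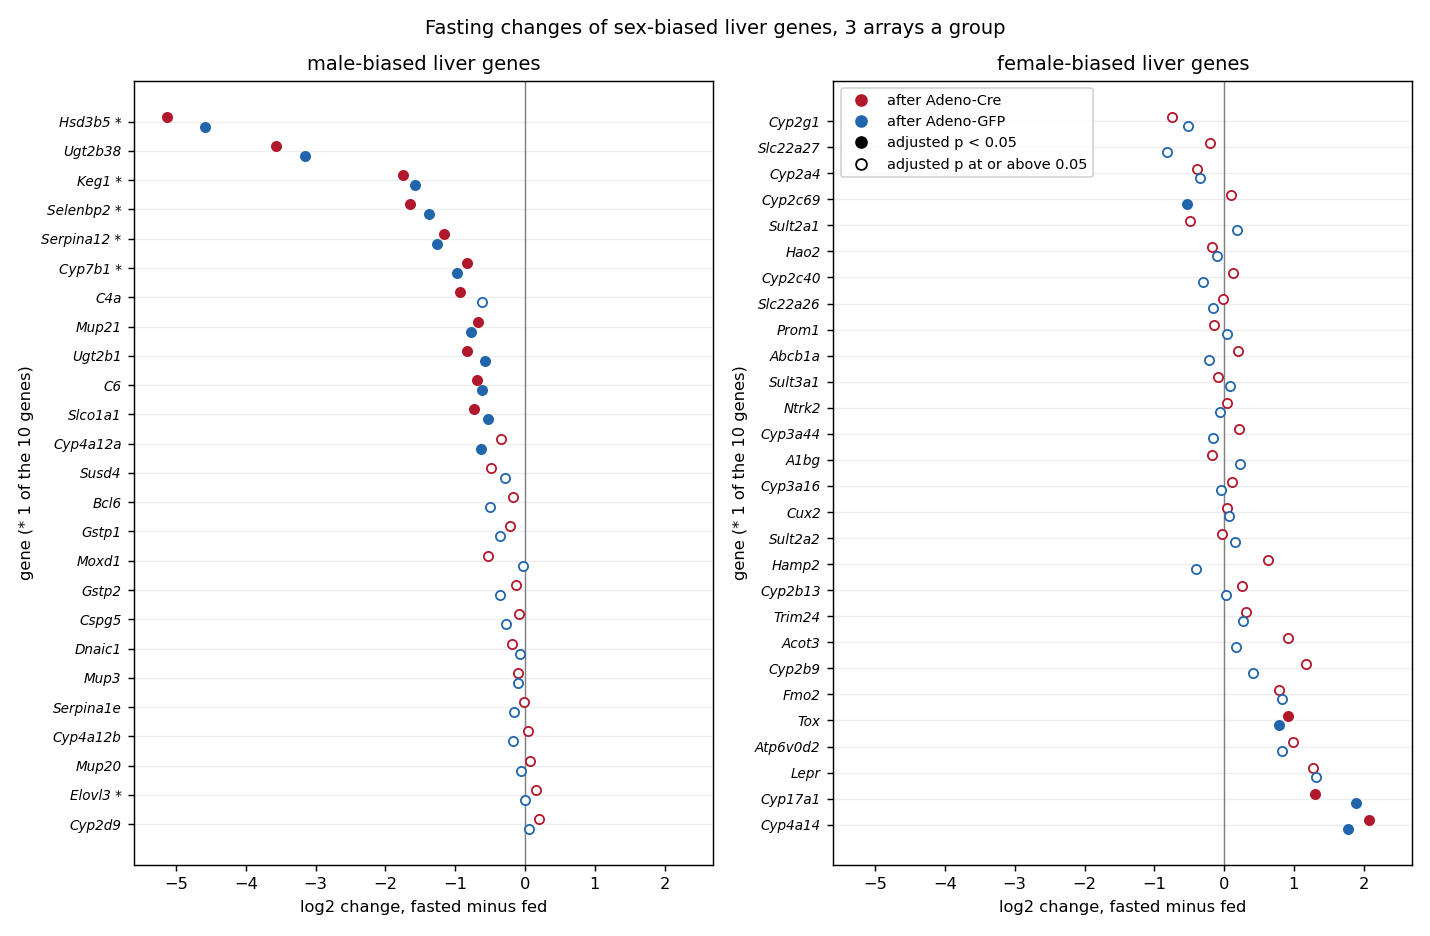
Log2 change, fasted minus fed, of 25 male-biased and 28 female-biased liver genes after Adeno-Cre (red, upper point) and Adeno-GFP (blue, lower point), with stars for the described genes and filled points for an adjusted p under 0.05. Male-biased genes that passed lie left of 0, with Hsd3b5 and Ugt2b38 outermost, and Cyp4a14, Cyp17a1 and Tox lie right of 0 among the female-biased genes.

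Among female-biased genes, 28 were measured. After Adeno-Cre, 3 rose and 0 fell (median 0.12), where 1.5% of all genes rose. After Adeno-GFP, 3 rose and 1 fell (median 0.05), where 1.2% of all genes rose. The same 3 rose in both: Cyp4a14, a fatty acid hydroxylase that is also known to respond to fasting, by 2.07 and 1.77; Cyp17a1, a steroid hydroxylase, by 1.30 and 1.89; and Tox, a transcription factor, by 0.92 and 0.78. The gene that fell was Cyp2c69, by 0.53 after Adeno-GFP (adjusted p = 0.049). That call was lost in 15 of 18 settings, including without any one of the 12 arrays, with adjusted p-values up to 0.14. The 3 rises held in all 19 settings. Among 18 measured regulators of sex-biased genes, Tox and the glucocorticoid-responsive factor Klf9 rose after both, Klf9 by 0.53 and 0.71, and Hnf4a rose after Adeno-GFP by 0.60. The Klf9 call after Adeno-Cre was lost in 8 of 19 settings, including without any array of Adeno-Cre (adjusted p up to 0.139), and that of Hnf4a without Adeno-GFP fed replicate 2 (0.0529). Bcl6, a repressor that is higher in male liver, had -0.18 and -0.51, and Cux2, a factor typical of female liver, had 0.04 and 0.07, and neither passed.

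Next, Adeno-Cre was set against Adeno-GFP in each diet. The viruses also express different proteins, so the effect of that and of Cre on the floxed gene cannot be told apart. None of the 10 genes passed in fasted livers, where 2.75% of all genes passed in either direction, and none in fed livers, where 1.49% did. The medians of the 10, Adeno-Cre minus Adeno-GFP, were -0.05 in fasted and -0.02 in fed livers, and those of all genes -0.03 and -0.02. These comparisons use the same arrays as the fasting comparisons.

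The gene at an unadjusted p under 0.05 was Hsd3b5. Its fasted means were 5.22 ± 0.86 after Adeno-Cre and 6.38 ± 0.42 after Adeno-GFP (SD, n = 3 each). The log2 difference of -1.16 (95% interval -1.90 to -0.42) had an adjusted p of 0.103, and the arrays overlapped through Adeno-Cre fasted replicate 2 at 6.21. Without that array the difference was -1.65 and the adjusted p 0.0053. In fed livers Adeno-Cre arrays averaged 10.36 ± 0.27 and Adeno-GFP arrays 10.97 ± 0.18, which differ by -0.62 (95% interval -1.35 to 0.12, adjusted p = 0.506), although each Adeno-Cre array lay below each Adeno-GFP array. The order of the group means was Adeno-Cre fasted, Adeno-GFP fasted, Adeno-Cre fed and Adeno-GFP fed, and the pair of fasted groups overlapped. The summed hepatocyte marker signal was lower after Adeno-Cre in both diets, by the ranges given above, which do not overlap, and so was the stellate signal in both diets and the sinusoidal endothelial signal in fed livers. The endothelial sums were 4017 to 5697 in Adeno-Cre fed and 5910 to 6306 in Adeno-GFP fed livers. The part of these markers in the Hsd3b5 difference was not tested. None of the 9 hepatocyte markers passed in either diet, with 3 at an unadjusted p under 0.05 in fasted and 1 in fed livers. Of all 22180 genes, 3711 in fasted and 2742 in fed livers were at that level.

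The other 9 genes had no unadjusted p under 0.05 between injections. Igf1 had a difference of -0.13 in fasted (95% interval -0.32 to 0.06, adjusted p = 0.496) and -0.13 in fed livers (adjusted p = 0.616), with all fasted Adeno-Cre arrays below all fasted Adeno-GFP arrays. Ghr had 0.06 in fasted and -0.10 in fed livers, and its fed Adeno-Cre arrays were all below its fed Adeno-GFP arrays. Keg1 had -0.11 and 0.06, Selenbp2 -0.08 and 0.19, and Cyp7b1 -0.02 and -0.17 in fasted and fed livers. Serpina12 had 0.26 and 0.15, and Elovl3 -0.10 and -0.26. Socs2 had 0.33 (95% interval -0.80 to 1.46) and 0.23 (95% interval -0.90 to 1.35). Cish had -0.02 (95% interval -0.99 to 0.95) and 0.48 (95% interval -0.49 to 1.44). Keg1 went the other way in fed livers, with all Adeno-Cre arrays above all Adeno-GFP arrays. In fasted livers 1 of the 10 genes lay wholly lower and 0 wholly higher after Adeno-Cre, against 2417 and 2210 of all 22180 genes. In fed livers 2 lay wholly lower and 1 wholly higher, against 2549 and 1863 of all genes.

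**Figure D4:**
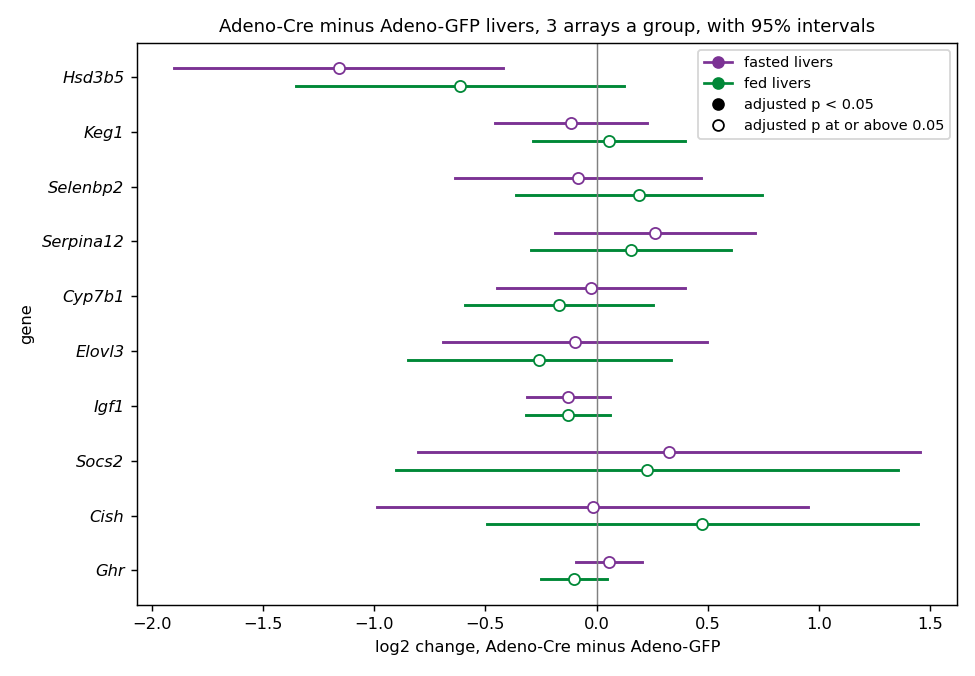
Log2 difference of the 10 genes, Adeno-Cre minus Adeno-GFP, in fasted (purple) and fed (green) livers, 3 arrays a group; points are limma estimates with 95% intervals, and open points have an adjusted p at or above 0.05. All 20 points are open, and Hsd3b5 in fasted livers (-1.16) has an interval that does not reach 0.

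The interaction, the fasting response after Adeno-Cre minus that after Adeno-GFP, passed for none of the 10 and for 0.00451% of all genes. That is 1 gene, Slc44a3, named after its value was seen (1.07). Hsd3b5 had -0.55 (95% interval -1.59 to 0.50, adjusted p = 0.821), Cish -0.49, Selenbp2 -0.27 and Keg1 -0.17. Serpina12 had 0.11, Cyp7b1 0.14, Elovl3 0.16, Socs2 0.10 and Igf1 0.00.

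In the surrounding pathway, genes that passed between injections were read beside all genes, of which 2.75% passed in fasted and 1.49% in fed livers. In fasted livers, Igf2r, the receptor that clears IGF-II, was 0.49 higher after Adeno-Cre (adjusted p = 0.0084), 1 of 14 IGF system genes. Among 25 male-biased genes 2 were lower, Ugt2b1 by 0.59 and Susd4 by 0.50, and among 28 female-biased genes 1 was higher, the drug transporter Abcb1a by 0.82. Susd4 and Abcb1a were named after their values were seen. Ugt2b1 passed in all 19 alternative settings. Susd4 was lost in 14 of 19, including without any array but Adeno-Cre fasted replicate 2, with adjusted p-values up to 0.151. Abcb1a was lost in 6 of 19, among them those without Adeno-Cre fasted replicate 1 or 2 or Adeno-GFP fasted replicate 1 or 3. Without Adeno-Cre fasted replicate 2, 4 male-biased genes passed. Igf2r was lost when only the groups compared were fitted (adjusted p = 0.0667). Ezh2, a histone methyltransferase that also marks dividing cells, was 0.98 higher (adjusted p = 0.0042), 1 of 18 regulators. None of the 14 receptor signalling genes passed in fasted livers, with 0 at an unadjusted p under 0.05, against 3711 of all 22180 genes. In fed livers the female-biased Cyp2c69 was 0.71 lower after Adeno-Cre, a call lost in 7 of 18 settings, among them those without Adeno-Cre fed replicate 1, 2 or 3 or Adeno-GFP fed replicate 1 or 3 (adjusted p up to 0.0864). Of the fasting genes, the lipogenic regulator Srebf1 was 0.53 lower, a call lost in 7 of 19 settings, among them those without Adeno-Cre fed replicate 1, 2 or 3 or Adeno-GFP fed replicate 2 or 3. No gene of the signalling, IGF, male-biased and regulator lists passed in fed livers. Of 14, 14, 25 and 18 measured in them, 1, 3, 4 and 5 had an unadjusted p under 0.05, against 2742 of all 22180 genes. Gzma, a granzyme of cytotoxic lymphocytes, was higher after Adeno-Cre in both diets, by 0.65 in fasted and 0.71 in fed livers, 1 of 9 measured lymphocyte markers. Their summed signal was 615 to 679 in Adeno-Cre fasted and 639 to 654 in Adeno-GFP fasted livers, and 719 to 879 in Adeno-Cre fed and 657 to 694 in Adeno-GFP fed livers, with 6 of the 9 below the lowest array median. Their part in these differences was not tested.

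Within groups, the probe sets used for Socs2 and Cish scattered widely. The SD within a group was 0.780 for Socs2 and 0.668 for Cish. Group means had SDs of 0.445 and 0.455, but a mean of 3 arrays varies less than a single array. The second, dimmer probe set of Socs2 scattered far less. Its SDs were 0.138 and 0.065 in Adeno-Cre fasted and fed livers, and 0.136 and 0.065 in Adeno-GFP fasted and fed livers. At the brighter probe sets, deviations of Socs2 and Cish from the group means ran together over the 12 arrays. Pearson's r was 0.791 (exact permutation p = 0.017, two-sided, adjusted 0.153) and Spearman's rho was 0.790 (exact p = 0.0193, adjusted 0.174). Without the 2 arrays farthest from the median on Socs2, r was 0.612. Deviations were permuted within groups in all 1296 arrangements, so the smallest possible p was 0.000772. Of 45 pairs of the 10 genes, 9 had an unadjusted p under 0.05 and 0 passed after Benjamini-Hochberg adjustment. The 9 pairs included 1 with opposite deviations, Elovl3 and Cish, at r = -0.827 (exact p = 0.0378, adjusted 0.213). Igf1 and Cish had r = 0.754 (exact p = 0.01, adjusted 0.139) and Keg1 and Socs2 had r = 0.560 (exact p = 0.0123, adjusted 0.139). Among the pairs of male-biased targets, Serpina12 and Cyp7b1 had r = 0.817 (exact p = 0.00926, adjusted 0.139) and Selenbp2 and Serpina12 had r = 0.783 (exact p = 0.00772, adjusted 0.139).

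The gene whose pattern was most like that of Cish over the 12 arrays was Onecut1, a cut homeobox transcription factor of hepatocytes. Likeness was the root mean square difference of mean-centred log2 levels, which was 0.278 for this pair, against an SD of 0.703 for Cish. Onecut1 had 8.40, 8.98 and 8.34 in Adeno-Cre fasted livers and 9.88, 8.93 and 9.92 in Adeno-Cre fed livers. It had 8.21, 9.01 and 8.86 in Adeno-GFP fasted livers and 9.26, 8.67 and 9.71 in Adeno-GFP fed livers. The highest and the lowest array of Cish in each group were also those of Onecut1 in 4 of 4 groups. Socs2 shared the highest array of Cish in 3 of 4 groups, and the lowest in 3 of 4. Onecut1 was picked for this likeness, so no test is given for it. Its fasting differences of -0.999 (adjusted p = 0.133) and -0.52 (adjusted p = 0.462) did not pass.

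**Figure D5:**
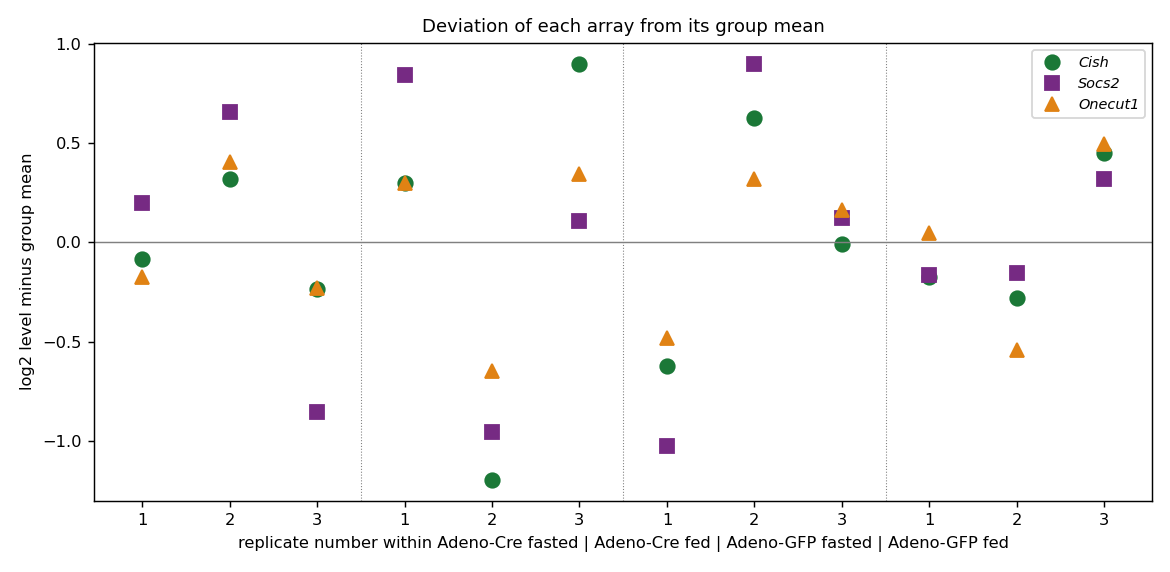
Log2 level minus the group mean for Cish (circles), Socs2 (squares) and Onecut1 (triangles) on each of the 12 arrays, in 4 groups of 3. The highest array of Cish in each group is also the highest of Onecut1, and Adeno-Cre fed replicate 2 is low for all 3 genes.

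By the same measure, Hsd3b5 was most like Ugt2b38 (0.947), Fabp5 (1.10) and Serpina4-ps1 (1.21), against its own SD of 2.62. Keg1 was most like the sterol synthesis genes Nsdhl (0.255) and Cyp51 (0.329), with Mir1948 (0.325) between them. Selenbp2 was most like Serpina12 (0.272), Nsdhl (0.293) and Keg1 (0.375), so that members of the list were among its nearest genes. Serpina12 was most like Cyp7b1 (0.262), Kcnt2 (0.271) and Selenbp2 (0.272). Cyp7b1 was most like Kcnt2 (0.190), Nudt7 (0.224) and C6 (0.237). Socs2 was most like Snord19 (0.389), Cish (0.420) and Onecut1 (0.431), and after Onecut1 came Mir101b (0.388) and Pparg (0.412) for Cish. Ghr was most like Slc25a1 (0.053), Ssh2 (0.056) and Aadac (0.059), Igf1 like Stradb (0.039), Pcsk1n (0.049) and Jmjd4 (0.052), and Elovl3 like Nefl (0.197), Olfr167 (0.203) and Cc2d2b (0.209). The targets that fell had nearest genes that also fell with fasting after both injections, each with an adjusted p under 0.05, which the measure itself favours.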

How the data were processed

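Liver RNA (200 ng, per the labels' protocols) was hybridised to Affymetrix arrays. The deposited values are log2 levels per probe set that the authors made with RMA, as the submitters' processing notes state (per the labels); its version and the build were not given in the sources used here. This method equalises the arrays' distributions and compresses changes of dim probe sets. Signal over background was not used, so no detection call was made, and the number of arrays limits the precision. Of 41345 probe sets, 23521 were named by 1 gene, 1814 by several and 16010 were not listed, leaving 22180 genes, each at its brightest probe set over all arrays.

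Groups came from the labels. The 12 arrays were fitted with a mean per group in limma 3.58.1 (lmFit, eBayes; R 4.3.3), adjusted by Benjamini and Hochberg over all genes, threshold 0.05, and the fit was tested on simulated data. Intervals are unadjusted 95% intervals. Members and lists were chosen with earlier results of these data known. All members are named, and from each list up to 4 genes with the smallest p among those that passed; fixed additions were Jak2, Stat5a, Stat5b, Igfals, Bcl6, Cux2 and fasting genes, and the 3 genes most like each member. Deviations of same-numbered arrays from their group means gave 18 correlations of -0.09 to 0.15, 3 of them over 0.1. The main fit did not use the numbers to pair samples. With 3 arrays a group, these correlations cannot exclude a pairing or a shared batch. Promoters and names were taken from RefSeq tables. Alternatives were a filter on dim genes, a further quantile normalisation, a block for the replicate number, fits of the compared groups alone, a trended and robust prior, the mean of a gene's probe sets, a test of every probe set, and omission of each array in turn.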

Additional observations from a re-analysis of the deposited data

How the results depend on the processing

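Over the whole table, the fit of only the groups compared passed 320 genes for Adeno-Cre in fasted and 145 in fed livers, and 212 for fasting after Adeno-Cre and 394 after Adeno-GFP, against 609, 331, 592 and 682. With dim genes left out the counts were 940, 606, 1049 and 1160, and with a trended and robust prior 939, 539, 935 and 1038. Testing all probe sets passed 91 for Adeno-Cre in fed livers, 332 and 388 for fasting after Adeno-Cre and Adeno-GFP, and 0 for the interaction. The interaction had 0 with quantile normalisation and 0 with the replicate number as a block. Leaving out 1 array gave 355 to 800, 31 to 362, 207 to 713 and 275 to 720 genes, and 0 to 1 for the interaction. Of the 10 genes, 0 to 1 then passed for Adeno-Cre in fasted and 0 to 0 in fed livers, 3 to 5 for fasting after Adeno-Cre, 4 to 6 after Adeno-GFP, and 0 to 0 for the interaction.

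Hsd3b5 and Keg1 passed in all 19 settings in both fasting comparisons, and Ghr did so after Adeno-GFP. Besides the calls reported above, Cyp7b1 missed the threshold after Adeno-Cre with the replicate block (0.0597) and with all probe sets tested (0.102), and after Adeno-GFP with only the groups compared (0.0528) and with all probe sets tested (0.0562). The block changed no other call of the 10 genes, and the labels give the arrays of a block only a shared number. The causes of these shifts were not tested. With 3 arrays a group, differences of about 1 log2 unit could not be told from the spread at the probe sets used for Socs2 and Cish. The second probe set of Socs2 scattered less. Levels near or below the array medians, as for Hsd3b5, Ugt2b38 and Serpina12 in fasted livers, limit the size of their changes.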
